A study of Mus musculus with 40 samples.

Results

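Of 40 mouse hearts measured on arrays, 20 are described here: the 10 hearts richest and the 10 hearts poorest in atrial transcripts. The 40 hearts were ranked by a score, the mean log2 intensity of Myl7, Myl4 and Sln after the median of each transcript over the 40 arrays was subtracted. The 10 highest are called the high hearts and the 10 lowest the low hearts. The other 20 are called the middle hearts. All animals were male C57BL/6J mice killed at 9 weeks of age, 1 animal and 1 array for each heart. They formed 4 diet groups of 10, named for the dam's diet and then the offspring's: LF_LF, LF_HF, HF_LF and HF_HF, where LF is a low-fat, high-carbohydrate diet and HF a high-fat, low-carbohydrate diet. Dams ate their diet before mating and until the pups were weaned, and the second diet was that of the offspring after weaning. The labels give the tissue only as heart, and do not say which chambers or attached tissues a piece held.

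The atria collect blood ahead of the ventricles, house the pacemaker region and release natriuretic peptides into the blood. Their muscle cells build part of the contractile apparatus from isoforms that adult ventricular muscle lacks. Myl7 and Myl4 encode the atrial regulatory and essential myosin light chains. Sln encodes sarcolipin, a small inhibitor of the calcium pump of the sarcoplasmic reticulum. Adult mouse ventricle holds little of these transcripts, so their level in heart RNA is widely used to recognise atrial muscle.

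The 250 bases before the start sites of Myl7, Myl4, Mybphl and Nppa are shown because these transcripts were among those that differed most between the hearts. Promoters were found for 8 of the 12 genes looked up, the 3 score genes and the 9 genes that passed the test described below. The sequences come from RefSeq on build GRCm38.p6 and lie at chr11:5898783-5899032 on the minus strand for Myl7, and on the plus strand at chr11:104550413-104550662 for Myl4, chr3:108364661-108364910 for Mybphl and chr4:148000472-148000721 for Nppa. Capitals mark matches on either strand to GATAA, the core bound by GATA factors, GGTGTGA, a T-box element, the CArG box of serum response factor, or the MEF2 element.
Myl7: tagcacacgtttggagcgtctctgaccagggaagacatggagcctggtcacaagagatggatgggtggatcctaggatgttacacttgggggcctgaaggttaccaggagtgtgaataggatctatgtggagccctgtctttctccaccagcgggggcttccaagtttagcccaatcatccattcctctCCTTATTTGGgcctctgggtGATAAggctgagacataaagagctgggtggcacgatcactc
Myl4: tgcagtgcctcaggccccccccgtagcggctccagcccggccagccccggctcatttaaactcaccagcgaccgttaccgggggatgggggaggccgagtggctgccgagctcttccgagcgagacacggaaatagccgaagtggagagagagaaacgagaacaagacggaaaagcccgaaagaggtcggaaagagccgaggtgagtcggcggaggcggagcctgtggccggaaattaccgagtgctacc
Mybphl: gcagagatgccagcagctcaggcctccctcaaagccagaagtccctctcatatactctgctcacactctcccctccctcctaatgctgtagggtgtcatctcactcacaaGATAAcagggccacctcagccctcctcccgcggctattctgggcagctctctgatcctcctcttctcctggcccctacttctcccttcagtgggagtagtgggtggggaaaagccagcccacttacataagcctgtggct
Nppa: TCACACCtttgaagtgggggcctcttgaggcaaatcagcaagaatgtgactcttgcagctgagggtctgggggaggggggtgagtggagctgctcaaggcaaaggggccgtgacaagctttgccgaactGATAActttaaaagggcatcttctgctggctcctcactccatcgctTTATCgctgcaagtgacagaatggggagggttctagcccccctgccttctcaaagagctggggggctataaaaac
GATAA matched in Myl7, Mybphl and Nppa, and 22.6% of the 32851 RefSeq promoter windows of this length held it. The CArG box matched in Myl7 and in 1.47% of all windows, GGTGTGA in Nppa and in 3.33%, and the MEF2 element in none of the 4 promoters and in 1.69%. No match was found in the Myl4 window. A match describes the letters alone.

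The score spanned a wide range and had a long lower tail. It ran from 1.06 to 1.77 in the high hearts (median 1.52), from -3.41 to 0.92 in the middle hearts (median -0.01) and from -5.97 to -4.03 in the low hearts (median -5.13). The 10th and 11th hearts had scores of 1.062 and 0.919, and the 30th and 31st had -3.41 and -4.029, so neither border fell in a wide gap. Because the hearts were chosen by the measured levels of these 3 genes, those levels are a description. Myl7 had intensities of 78.1 to 245.4 in the low hearts (median 124.2) and 9795 to 18459 in the high hearts (median 14965). Myl4 ran from 118.6 to 711.3 in the low hearts and from 18459 to 27990 in the high hearts. Sln ran from 60.9 to 235.1 and from 8183 to 15759. The lowest of these values lie at the array median of 79.3, the level of probes with little or no signal, while the highest Myl4 values lie close to the top of the scale at 31454.1.

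**Figure D1:**
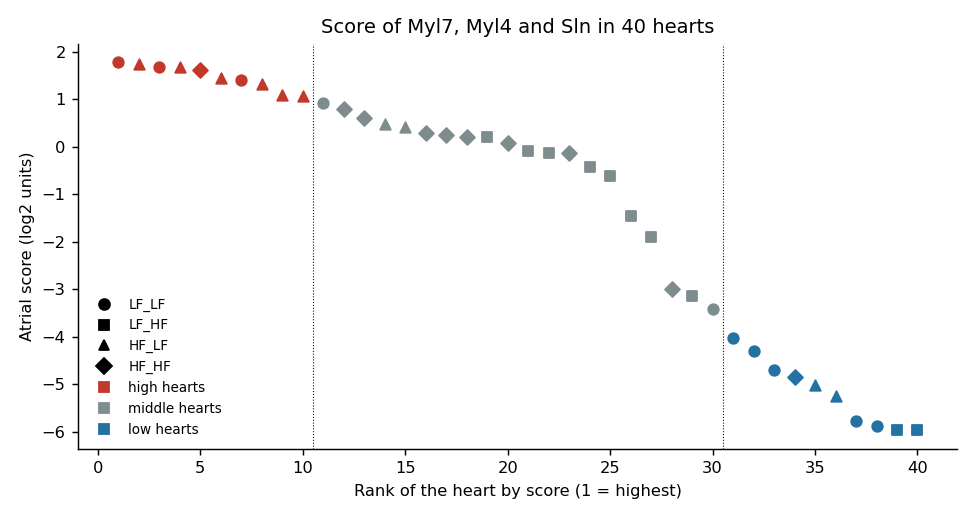
Score of Myl7, Myl4 and Sln (log2 units, y) for each of 40 hearts against its rank (x), 1 point per heart, with colour for high, middle and low hearts and marker shape for the diet group. The 10 high hearts lie between 1.06 and 1.77 and the 10 low hearts between -5.97 and -4.03, and dotted lines mark the borders.

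Diet groups were spread unevenly over the ranking. The high hearts comprised 6 HF_LF, 3 LF_LF and 1 HF_HF heart and no LF_HF heart. The low hearts comprised 5 LF_LF, 2 HF_LF, 2 LF_HF and 1 HF_HF heart. The middle hearts comprised 8 HF_HF, 8 LF_HF, 2 HF_LF and 2 LF_LF hearts. Thus 9 of the 10 high hearts but 4 of the 20 middle hearts came from LF-fed offspring. Diet group was a term in every comparison, which left the 2 low LF_HF hearts without a counterpart, so that 18 arrays carried the difference between high and low hearts. Cages of birth were uneven as well. The 3 hearts of cage 8 were all low, and the 2 hearts of cage 1 and the 2 of cage 6 were all high, whereas cage 12 gave 1 high heart with a score of 1.31 and 1 low heart with -5.01. The p-values given here treat each heart as a separate sample.

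Some hearts held transcripts of tissues outside the heart. In 14 of the 40 hearts the mean of skeletal muscle, exocrine pancreas, liver, lung or thymus markers exceeded its median by more than 1 log2 unit, and these were 3 high, 6 middle and 5 low hearts. The pancreas list reached 7.31 in a low heart and 5.57 in a high heart, and the liver list 3.64 and 3.95. The arrays also fell into 2 sets by the first component of the dim probes that were not tested, with 6 high and 6 low hearts in the larger set and 4 and 4 in the smaller. The labels do not say what separates these sets.

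Several atrial transcripts outside the score were far higher in the high hearts, and the ventricular light chains were bright in every heart. Differences between high and low hearts are given as log2 intensity with the standard error (SE) of limma, 10 hearts each. They are a description, since the hearts were ranked on transcripts of the same arrays, and a gene is counted as higher or lower where the adjusted p-value was under 0.05. By this count 701 of 8746 genes (8.02%) were higher and 792 (9.06%) lower in the high hearts. Differences were lopsided in size. Among the counted genes 62 were higher by at least 1 log2 unit and 0 were lower by as much, while 225 were higher and 12 lower by at least 0.5. The values of the classes did not overlap at all for 111 genes (1.27%) that were higher and 13 (0.149%) that were lower in the high hearts.

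Which genes follow the score was tested in the 20 middle hearts, which the comparison of high with low hearts did not use. There, the slope of log2 intensity on the score was fitted with diet group as a term, and its adjusted p-value came from limma over all 8746 genes. A positive slope passed for 9 genes (0.103%) and a negative slope for 0 genes (0%), with 243 positive (2.78%) and 126 negative (1.44%) at an unadjusted p under 0.05. All 9 genes were also higher in the high hearts, and their classes did not overlap. The 9 were Mybphl, Stard10, Nppa, Dkk3, Cacna1h, Fgf12, Mt3, Sytl2 and Pum3. Without the 6 middle hearts that held other tissue 9 genes passed as well, of which 5 were shared, and Cacna1h, Mt3, Sytl2 and Pum3 were lost. Sytl2 and Pum3 were also lost with a score of Myl7 and Myl4 alone.

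Mybphl, myosin binding protein H-like, a sarcomere protein of atrial muscle, followed the score most closely. Its intensity was 62.4 to 128.9 in the low hearts (median 76.9), 153.5 to 2911 in the middle hearts (median 1281) and 3144 to 6030 in the high hearts (median 4707). The 3 classes did not overlap, and each low heart lay near the background of the array. The difference between high and low hearts was 5.78 (SE 0.138), or 54.8-fold. In the middle hearts Mybphl rose by 0.931 log2 units per unit of score (SE 0.0328, adjusted p = 2.42e-13, limma).

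Nppa encodes atrial natriuretic peptide, the hormone that atrial muscle releases on stretch. It ran from 2123 to 5950 in the low hearts (median 3920), from 4404 to 30531 in the middle hearts (median 18549) and from 22617 to 30029 in the high hearts (median 28457). Even the lowest heart stood far above the array median. In the other direction the high hearts sat at the top of the scale, where the lowest of them, heart 133, had the highest score. The difference was 2.88 (SE 0.128), measured against values at the top of the scale. In the middle hearts Nppa rose by 0.609 per unit of score (SE 0.0553, adjusted p = 2.49e-06, limma). Bmp10, a growth factor made by atrial muscle, did not pass the filter on dim probes and had no test. Its values of 62.3 to 233.7 in the high hearts exceeded the highest low heart, at 75.0, in 9 of 10.

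Dkk3, a secreted glycoprotein of the dickkopf family, ran from 79.6 to 203.9 in the low hearts (median 99.9) and from 1720 to 4016 in the high hearts (median 2882). The difference was 4.53 (SE 0.192), or 23.1-fold, and the slope in the middle hearts was 0.55 (SE 0.0689, adjusted p = 0.00032, limma). Stard10, a lipid transfer protein, had 300.5 to 814.4 in the low hearts (median 383.9) and 1546 to 2877 in the high hearts (median 2153). Its difference was 2.61 (SE 0.122) and its slope 0.408 (SE 0.0365, adjusted p = 2.49e-06, limma). The 2 highest low values of Stard10 belonged to the 2 hearts with the lowest scores, heart 201 at 814.4 and heart 207 at 520.3. Both were LF_HF hearts and both held liver transcripts.

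The other genes that passed were dimmer. Cacna1h, a T-type calcium channel subunit, had 112.4 to 141.8 in the low hearts and 339.0 to 638.0 in the high hearts, a difference of 1.96 (SE 0.108), and a slope of 0.296 in the middle hearts (SE 0.0392, adjusted p = 0.00056, limma). Fgf12, an intracellular partner of sodium channels, had 67.1 to 82.9 and 124.6 to 217.6, with a slope of 0.162 (SE 0.0216, adjusted p = 0.00056, limma). Mt3, a metallothionein that binds zinc and copper, had 66.6 to 86.3 and 118.8 to 226.7. Sytl2, a synaptotagmin-like protein of vesicle docking, had 78.3 to 94.1 and 151.5 to 305.6. Pum3, an RNA-binding protein of the Pumilio family, had 436.0 to 512.0 and 705.1 to 1498. The slopes of Mt3, Sytl2 and Pum3 were 0.181 (SE 0.0277), 0.182 (SE 0.0327) and 0.139 (SE 0.0264), with adjusted p-values of 0.00325, 0.0221 and 0.0401 from limma. Within the middle hearts these 3 and Fgf12 changed mostly at the upper end. Pum3 had 465.1, 481.6 and 478.6 in the 3 lowest middle hearts, inside the range of the low hearts, and 872.3 and 744.4 in the 2 highest. Mybphl, Nppa and Stard10 still passed without these 3 lowest middle hearts, and the other 6 did not. Pum3 also lost its call when any of 13 of the 20 middle hearts was left out, Sytl2 with any of 4 and Mt3 with any of 3.

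**Figure D2:**
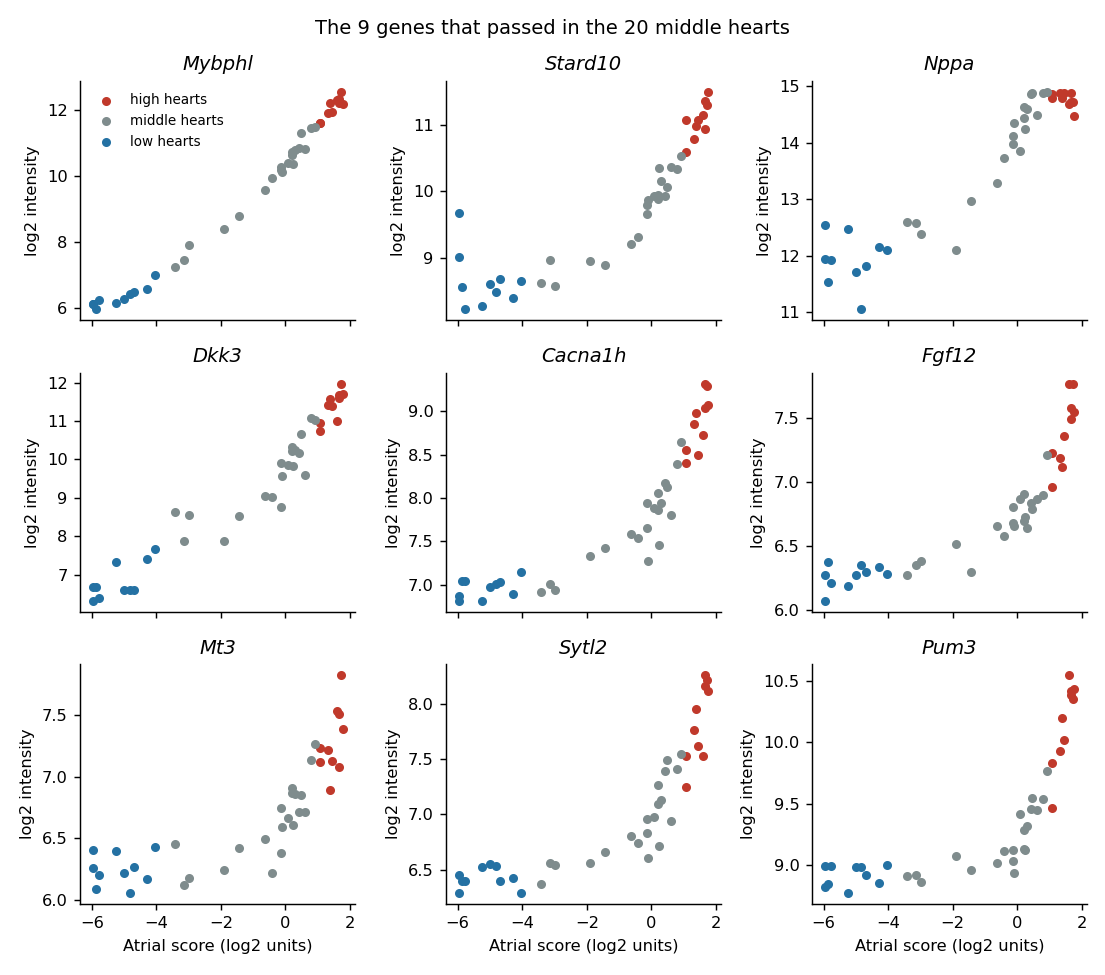
Log2 intensity (y) against atrial score in log2 units (x) for the 9 genes that passed in the middle hearts, 1 point per heart (10 high, 20 middle, 10 low). Mybphl runs nearly straight from 62.4 to 6030 in intensity, Nppa reaches 30029 in the high hearts and 30531 in the middle hearts, and Fgf12, Mt3, Sytl2 and Pum3 have most of their range at the upper end of the score.

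The genes whose pattern was most like the score were ranked by the Pearson correlation over all 40 arrays after the mean of each diet group was subtracted, a description that shares its arrays with the ranking. They were Mybphl (r = 0.99), Dkk3 (0.971), Nppa (0.936), Cacna1h (0.912) and Gpx3 (0.889). Gpx3, a secreted glutathione peroxidase, had 1050 to 1258 in the low hearts (median 1146) and 3149 to 6584 in the high hearts (median 4971). It was 4.10-fold higher in the high hearts and missed the threshold in the middle hearts, with a slope of 0.226 (SE 0.0486, unadjusted p = 0.000168, limma). Mlana, a melanosome protein, had 65.2 to 76.5 and 176.8 to 494.1, a difference of 1.99 (SE 0.154). Olfm1, a secreted olfactomedin named here after its values were seen, had 92.7 to 110.7 and 140.0 to 261.1. Both missed the threshold in the middle hearts, each with an adjusted p of 0.0592 from limma. The genes most opposed to the score were Ttc19 (r = -0.739), Tmem117 (-0.727), Fahd1 (-0.719), Slc6a8 (-0.716) and Gpr22 (-0.712), whose levels differed by far less. Slc6a8, the creatine transporter, ran from 1338 to 1784 in the high hearts and from 1768 to 2076 in the low hearts, a difference of -0.36 (SE 0.0404).

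Of 20 listed atrial markers other than the score genes 17 were measured and 16 passed the filter. Of these 16, 6 were higher in the high hearts without overlap, beside 1.27% of all genes. Altogether 11 were higher and 0 lower, beside 8.02% and 9.06% of all genes. The median difference was 0.388 beside -0.033 over all genes. The count of higher genes was 10 without the hearts that held other tissue (median 0.471). It was 7 with the adipocyte score as a term (median 0.379), where Tbx5, Kcnj3, Nr2f2 and Vsnl1 were lost. In the middle hearts 4 passed and 9 had a positive slope at an unadjusted p under 0.05, and the median slope was 0.0716 beside 0.00136 over all genes. Besides Mybphl, Nppa, Dkk3 and Stard10, the non-overlapping members were transcription factors. Nr2f1, a nuclear receptor of atrial identity, had 210.4 to 300.8 in the low hearts and 366.1 to 502.7 in the high hearts (difference 0.75, SE 0.0776), and Tbx5, a T-box factor of the atria and left ventricle, 72.6 to 101.9 and 102.5 to 135.6 (0.38, SE 0.0613). Gja5, the connexin of atrial and conduction tissue, was 0.91 higher (SE 0.117) and Kcnj3, a subunit of the acetylcholine-gated potassium channel, 0.40 higher (SE 0.0868). Hamp, the iron hormone hepcidin, was 3.34 higher (SE 0.461), yet its classes overlapped, with 58.6 to 1400 in the low hearts and 273.9 to 2628 in the high hearts. The overlap came from low heart 201 at 1400 and high heart 52 at 273.9, whose nearest other values were 283.6 and 877.2. Nr2f2 and Vsnl1 made up the other higher members. Kcna5, Kcnk3, Pam, Hey1 and Chrm2 were not counted, with differences of -0.33 (SE 0.164), -0.05 (SE 0.124), -0.14 (SE 0.184), 0.00 (SE 0.0708) and 0.03 (SE 0.115).

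Differences of the ventricular markers ran from -0.50 to 0.09. Myl2, the ventricular regulatory light chain, ran from 22041 to 27990 in the low hearts and from 24352 to 29589 in the high hearts, and Myl3, the essential one, from 24352 to 30531 and from 25911 to 31454. These values lie near the top of the scale. Of the 11 ventricular markers, all tested, 0 were higher and 3 lower in the high hearts, with a median difference of -0.124, beside 9.06% lower among all genes. The lower count was 1 without the hearts that held other tissue (median -0.036) and 0 with the adipocyte score as a term (median -0.167). The 3 were Kcnip2, the partner of the transient outward potassium channel, at -0.50 (SE 0.0895), and the Iroquois transcription factors Irx3 at -0.41 (SE 0.126) and Irx4 at -0.27 (SE 0.082). Irx3 and Irx4 lost their counts when any of 4 and any of 5 hearts was left out. Kcnip2 was among the 15 lowest differences of all genes, as was Irx2, a further Iroquois gene outside the list, at -0.59 (SE 0.154). In the middle hearts 0 of the 11 had a slope with an unadjusted p under 0.05, and without heart 183, described below, 3 had a negative one, Myl2, Irx3 and Irx4 (slopes -0.0421, -0.103 and -0.0745, unadjusted p = 0.0108, 0.00589 and 0.0293, limma). In whole-tissue RNA, fewer cells of a type and less RNA per cell cannot be told apart.

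Among calcium cycling, sarcomere and ion channel genes some were lower in the high hearts, beside 9.06% of all genes. Of 14 calcium cycling genes 0 were higher and 6 lower, with a median of -0.236. Asph, the locus of junctin, had 328.6 to 481.0 in the low hearts and 230.6 to 334.9 in the high hearts, a difference of -0.46 (SE 0.0907). Hrc, a calcium-binding protein of the sarcoplasmic reticulum, differed by -0.35 (SE 0.0632), Camk2d, the cardiac calmodulin kinase, by -0.29 (SE 0.0612) and S100a1, a regulator of calcium release, by -0.26 (SE 0.0576). Atp2a2, the calcium pump, was close to the top of the scale and differed by 0.18 (SE 0.0854). Of 21 sarcomere genes 3 were higher and 5 lower. The higher ones were Mybphl, Tpm2 and Tpm1, both of the latter tropomyosins, at 1.05 (SE 0.145) and 0.46 (SE 0.115). Mybpc3, the cardiac myosin binding protein, had 4724 to 6274 in the low hearts and 3334 to 4924 in the high hearts, a difference of -0.41 (SE 0.0768), and Actn2, the alpha-actinin of the Z-disc, one of -0.22 (SE 0.0524). Of 18 ion channel and connexin genes 2 were higher, Gja5 and Kcnj3, and 5 lower, among them Kcnip2 and Kcnj8. Kcnj8, a pore subunit of ATP-sensitive potassium channels, differed by -0.32 (SE 0.0621). Abcc9, a regulatory subunit of such channels, was among the 15 lowest differences of all genes, at -0.53 (SE 0.0637). In the middle hearts these lists had 0 negative slopes at an unadjusted p under 0.05. Positive ones numbered 0 for calcium cycling, 2 for the sarcomere and 4 for ion channels and connexins. Median slopes were 0.00303, 0.00216 and 0.0116, beside 0.00136 over all genes. Without heart 183 the negative ones numbered 0, 1 and 2.

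Part of the genes of energy metabolism were lower in the high hearts by small amounts, beside 9.06% of all genes, and most were not counted. Of 66 respiratory chain genes 0 were higher and 22 lower, with a median of -0.104. Ndufs4, a subunit of complex I, had 6721 to 8382 in the low hearts and 5482 to 7142 in the high hearts, a difference of -0.36 (SE 0.0526). Ndufa5, of the same complex, was the respiratory chain gene without overlap, with 10135 to 12136 and 8780 to 10054. Of 18 genes of glycolysis and creatine kinase 0 were higher and 8 lower (median -0.149), including Pgam2, muscle phosphoglycerate mutase, at -0.53 (SE 0.0928), Ckm, muscle creatine kinase, at -0.44 (SE 0.117) and Slc2a4, the insulin-responsive glucose transporter, at -0.30 (SE 0.0614). For fatty acid oxidation the counts were 0 higher and 4 lower of 20 (median -0.14), with Acadvl at -0.22 (SE 0.0568). For the citrate cycle they were 0 higher and 2 lower of 16 (median -0.137), a share near that of all genes. Suclg2 of the citrate cycle was at -0.32 (SE 0.0914), while Idh3b went the other way, at 0.485 (SE 0.167), and was not counted. In the middle hearts, 0 genes of these 4 lists passed, and at an unadjusted p under 0.05 there was 1 negative slope in the respiratory chain and 1 positive slope in glycolysis and creatine kinase.

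The counts of lower muscle and metabolic genes varied with the hearts and terms of the fit. Without the 3 high and 5 low hearts that held markers of other tissues, 317 genes were higher (3.62%) and 133 lower (1.52%). The lower counts then became 3 of 14 for calcium cycling, 1 of 21 for the sarcomere, 3 of 66 for the respiratory chain, 1 of 18 for glycolysis and creatine kinase, and 0 for fatty acid oxidation and the citrate cycle. With the adipocyte score as a term, 146 genes were higher (1.67%) and 25 lower (0.286%), and 1 gene of these 6 lists was lower. The differences themselves moved less than the counts. The medians without the hearts with other tissue and with the adipocyte term were -0.161 and -0.212 for calcium cycling, -0.086 and -0.073 for the sarcomere, and -0.105 and -0.115 for the respiratory chain. They were -0.13 and -0.136 for glycolysis and creatine kinase, -0.136 and -0.168 for fatty acid oxidation, and -0.069 and -0.196 for the citrate cycle. The part of other tissue in the lower values was not tested. Of the 792 genes that were lower in the high hearts 409 (51.6%) had a negative slope in the middle hearts, beside 47.7% of all genes, and without heart 183 the shares were 59.3% and 46.8%.

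Most fibroblast and matrix genes were higher in the high hearts, beside 8.02% of all genes. Of 22 such genes 18 were higher and 0 lower, 4 without overlap, with a median difference of 0.44. Fbln1, the matrix protein fibulin-1, had 911.8 to 1259 in the low hearts (median 1076) and 1400 to 2492 in the high hearts (median 2291). Dcn, the proteoglycan decorin, had 8325 to 9795 (median 9269) and 10293 to 15906 (median 13595), and Mfap4, a microfibril protein, 110.7 to 182.6 and 184.9 to 410.3. Their differences were 0.99 (SE 0.108), 0.59 (SE 0.0822) and 1.11 (SE 0.142), and Dpt, dermatopontin, was 0.74 higher (SE 0.116) with no overlap. Without the hearts that held other tissue 11 of the 22 were counted as higher, with a median of 0.452, and with the adipocyte score as a term 4, with a median of 0.338. In the middle hearts 0 passed and 5 had a positive slope at an unadjusted p under 0.05, with a median slope of 0.0447. Among these 5 was Tcf21, a transcription factor of cardiac fibroblasts, with a slope of 0.0866 (SE 0.0241, unadjusted p = 0.00187, limma).

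The inner lining and the vessels were described by separate lists, whose counts stand beside 8.02% of all genes higher and 9.06% lower. Of 4 tested endocardial markers 3 were higher, with a median difference of 0.806. Plvap, a protein of endothelial diaphragms, had 135.3 to 204.4 in the low hearts and 221.4 to 427.4 in the high hearts, a difference of 1.05 (SE 0.124). Its slope in the middle hearts, 0.132 (SE 0.0325), had an unadjusted p of 0.000665 from limma and did not pass. Npr3, the clearance receptor for natriuretic peptides, was 0.89 higher (SE 0.109) and Vwf, von Willebrand factor, 0.73 higher (SE 0.155). These 3 were also counted with the adipocyte score as a term. Nfatc1, the other tested endocardial marker, was not counted, at 0.04 (SE 0.0515). Nrg1 and Hapln1 of the same list did not pass the filter, and their class means differed by -0.023 and -0.029. General endothelial markers were divided, with 2 of 13 higher and 1 lower and a median of -0.015. Pecam1, an adhesion protein of all endothelium, ran from 541.2 to 728.9 in the low hearts and from 628.2 to 1019 in the high hearts and was not counted, at 0.22 (SE 0.0911). The lower one was Robo4, a guidance receptor of vessels, at -0.31 (SE 0.0717). Of 8 smooth muscle markers 5 were higher, such as Myh11, smooth muscle myosin, at 0.80 (SE 0.173), where 9 high hearts lay above and 1 below all low hearts. The smooth muscle count was 2 without the hearts that held other tissue and 0 with the adipocyte term, while the median of 0.341 became 0.361 and 0.312. Macrophage and antigen presentation genes gave 7 higher of 16 with a median of 0.312, and 0 of them without the hearts that held other tissue, where the median was 0.233.

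Mesothelial and adipose transcripts showed 2 further patterns, with counts that stand beside 8.02% of all genes higher and 9.06% lower. Of 9 markers of epicardium and mesothelium, the sheet that covers the heart and lines the pericardium, 6 were higher and 0 lower, with a median of 0.73. Upk3b, a uroplakin of mesothelial cells, had 117.4 to 267.4 in the low hearts (median 145.4) and 367.1 to 842.3 in the high hearts (median 642.0), a difference of 1.85 (SE 0.166). Upk1b, another uroplakin, was 1.34 higher (SE 0.143) and Lrrn4 0.73 higher (SE 0.0998), both without overlap. All 10 high hearts thus exceeded all low hearts in these 3 genes, as they did in 1.27% of all genes. Without the hearts that held other tissue 5 of the 9 were higher, with a median of 0.775, and with the adipocyte score as a term 3, with a median of 0.392. Of 11 adipocyte markers 10 were measured and 6 tested, of which 3 were higher, Car3, Adipoq and Cidec.

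Adipose transcripts separated the high hearts from one another. Adipoq, the fat hormone adiponectin, had 2552, 1483, 3156, 782.3 and 2711 in hearts 133, 134, 177, 101 and 128, and 142.8 to 485.7 in the other 5. The low hearts ran from 66.8 to 109.6, so the lowest high heart still lay above them, by little. Scd1, a desaturase of fatty acid synthesis and among the 15 highest differences, had 165.0 to 2222 in the low hearts (median 341.5) and 884.0 to 20428 in the high hearts (median 6480), and its 5 highest values fell in the same 5 hearts. Ucp1, the uncoupling protein of brown fat, did not pass the filter and was not tested. It reached 3545 in heart 133 and 1213 in heart 177 and lay between 75.5 and 367.7 in the other high hearts, against 61.1 to 81.9 in the low hearts. These 5 hearts came from 4 cages, from 3 LF_LF and 2 HF_LF animals, and 2 of them, hearts 101 and 128, were among the hearts with liver transcripts. The summed adipocyte list, as mean log2 difference from the median, ran from -0.08 to 2.32 in the high hearts and from -0.25 to -0.12 in the low hearts. Differences between high and low hearts were 3.16 (SE 0.577) for Adipoq, 3.29 (SE 0.614) for Car3, a carbonic anhydrase of fat and muscle, 4.01 (SE 0.622) for Scd1 and 2.28 (SE 0.469) for Cidec, a lipid droplet protein.

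A single middle heart decided the slopes of these genes. Heart 183, an HF_HF heart with a score of -2.99, was among the hearts with liver transcripts. It had intensities of 3475 for Adipoq, 12363 for Scd1, 924.3 for Ucp1 and 1270 for Upk3b, as high as or higher than most high hearts. The fit without heart 183 was singled out for these values, so slopes without this heart are a description. With it, the slope of Adipoq in the middle hearts was -0.202 (SE 0.202) and that of Upk3b -0.0171 (SE 0.108). Without it, they were 0.38 (unadjusted p = 0.000892) and 0.279 (unadjusted p = 0.000409), and neither passed adjustment over all genes in limma. All 9 mesothelial and all 6 adipocyte markers then had positive slopes, against 1 and 0 with heart 183. More broadly, 61.5% of the 701 genes that were higher in the high hearts had a positive slope in the 20 middle hearts, beside 52.3% of all genes, and without heart 183 the shares were 84.6% and 53.2%. The count of genes that passed became 7 (0.08%) without heart 183. Among them Gpx3 was gained (slope 0.312, adjusted p = 0.00894, limma), and Mt3, Sytl2 and Pum3 were lost. At an unadjusted p under 0.05, 329 slopes were then positive (3.76%) and 189 negative (2.16%).

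**Figure D3:**
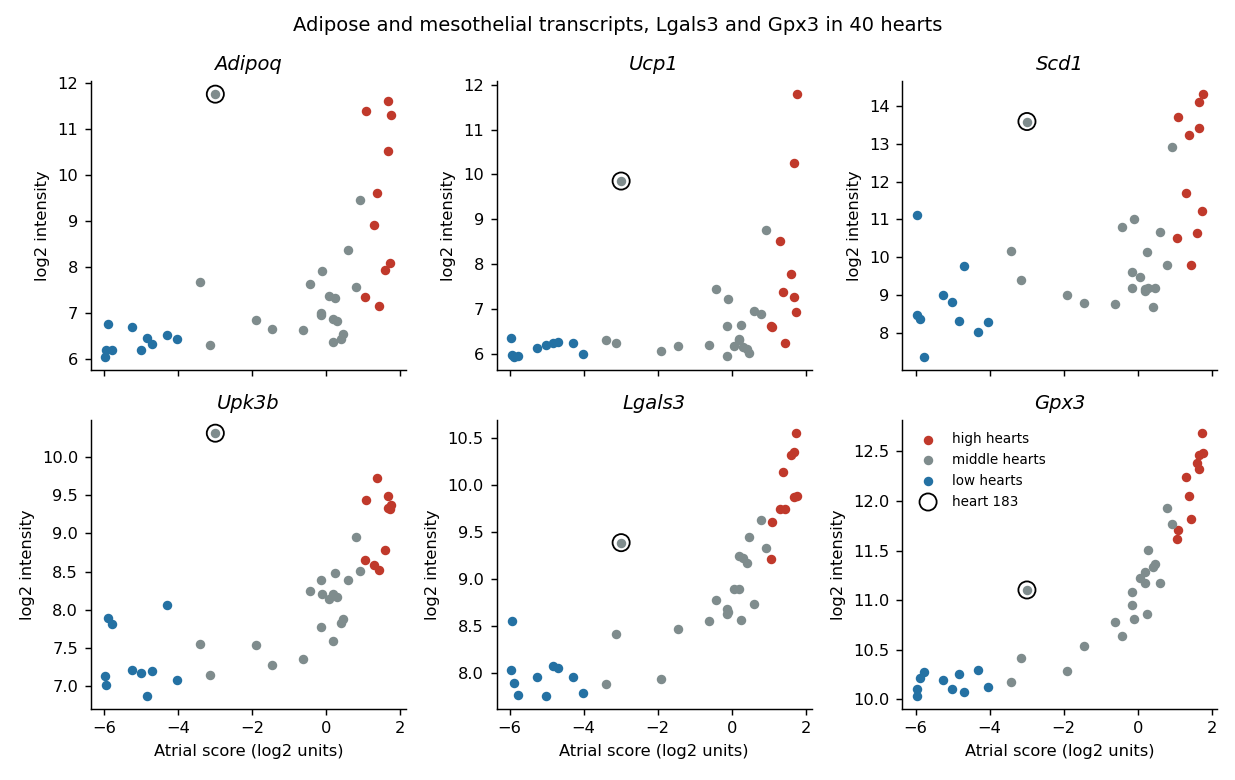
Log2 intensity (y) of Adipoq, Ucp1, Scd1, Upk3b, Lgals3 and Gpx3 against atrial score in log2 units (x), 1 point per heart, with heart 183 circled. Heart 183 has a score of -2.99 and 3475 for Adipoq and 1270 for Upk3b, while the other points of Upk3b, Lgals3 and Gpx3 lie higher at higher scores.

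Lgals3, galectin-3, is a sugar-binding protein of macrophages and mesothelium. It had 216.8 to 376.8 in the low hearts (median 249.0) and 593.6 to 1504 in the high hearts (median 943.7), a difference of 2.07 (SE 0.147) without overlap. Its slope in the middle hearts was 0.152 (SE 0.0664, unadjusted p = 0.0339), and without heart 183 it was 0.294 (unadjusted p = 0.000108, adjusted p = 0.085, limma). Of 6 complement genes 4 were higher, beside 8.02% of all genes, and 1 with the adipocyte score as a term, beside 1.67%. C2, a classical pathway protease, had 108.0 to 237.6 in the low hearts and 156.8 to 625.2 in the high hearts, and Serping1, the C1 inhibitor, 1254 to 1652 and 1781 to 2475, without overlap.

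The difference between high and low hearts was set against the slope in the middle hearts for all genes. Mybphl, Nppa, Dkk3 and Stard10 had differences of 5.78, 2.88, 4.53 and 2.61 and slopes of 0.931, 0.609, 0.55 and 0.408. Scd1, Car3, Adipoq and Cidec had differences of 2.28 to 4.01 but slopes of -0.0788, -0.196, -0.202 and -0.232. Ptgds, prostaglandin D synthase, had the lowest difference of all, -0.89 (SE 0.173), with 519.1 to 1794 in the high hearts and 1159 to 1920 in the low hearts. Its slope was -0.142 (SE 0.0765, unadjusted p = 0.0796, limma). Timp4, an inhibitor of matrix proteases, followed with -0.63 (SE 0.124) and a slope of -0.0061 (SE 0.0463).

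**Figure D4:**
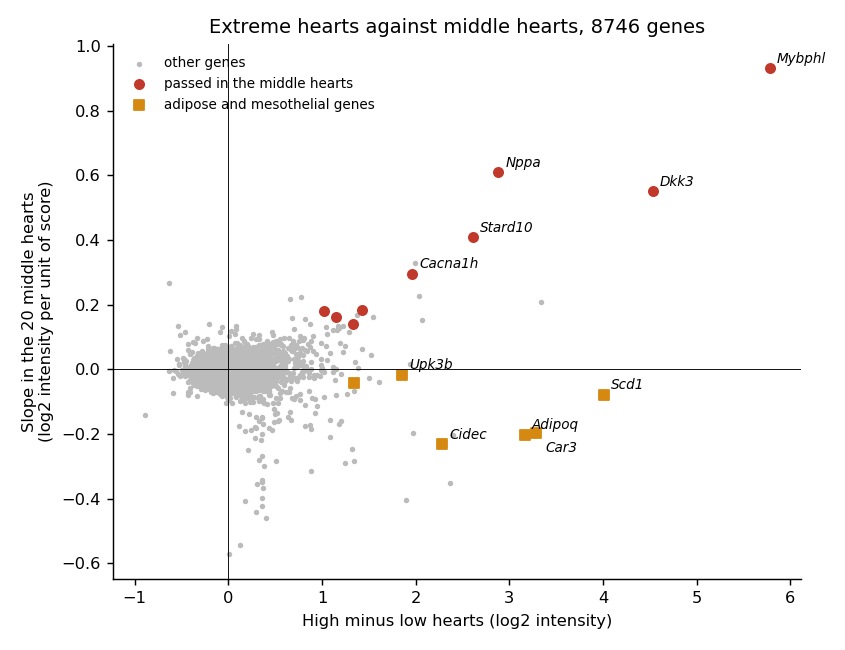
Difference between high and low hearts in log2 intensity (x) against the slope in the 20 middle hearts in log2 intensity per unit of score (y), 1 point for each of 8746 genes. The 9 genes that passed in the middle hearts are red and lie to the upper right, with Mybphl at 5.78 and 0.931. Orange squares mark Adipoq, Car3, Scd1, Cidec, Upk3b and Upk1b, whose slopes lie below 0 with heart 183 included.

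Skeletal muscle and pacemaker markers gave mixed values. Of 9 skeletal muscle markers 3 were higher and 2 lower, beside 8.02% and 9.06% of all genes. Myl1, the fast skeletal light chain, had 2229 to 4448 in the low hearts and 5898 to 11646 in the high hearts (difference 1.37, SE 0.111), without overlap, whereas the list as a whole ran from 0.03 to 0.49 in the high hearts and from -0.09 to 0.06 in the low hearts, as mean log2 difference from the median. Of 4 tested pacemaker and conduction markers and 7 of retinoic acid metabolism, 0 were higher or lower. Shox2, a pacemaker marker, came near at 0.235 (SE 0.0803, adjusted p = 0.0505, limma). Without the hearts that held other tissue 1 pacemaker marker was higher. Isl1 and Tbx18 of the same list did not pass the filter, and 9 and 2 high hearts exceeded all low hearts. Among untested retinoic acid genes Aldh1a3 had 9 such hearts and the others at most 2. Isl1 had 57.3 to 69.6 in the low hearts and 67.1 to 96.3 in the high hearts, and Aldh1a3 63.9 to 73.2 and 67.2 to 85.0. Both lay near the array median of 79.3, the level of probes with little or no signal. How often other dim genes reach such counts was not computed. Cyp2e1, an enzyme that liver expresses strongly, was among the 15 highest differences, at 2.37 (SE 0.731), with 72.4 to 4632 in the low hearts and 264.5 to 6224 in the high hearts. It was the liver marker counted as higher, of 12, and it lost its count when any of 6 hearts was left out and in 7 of 18 alternatives.

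**Figure D5:**
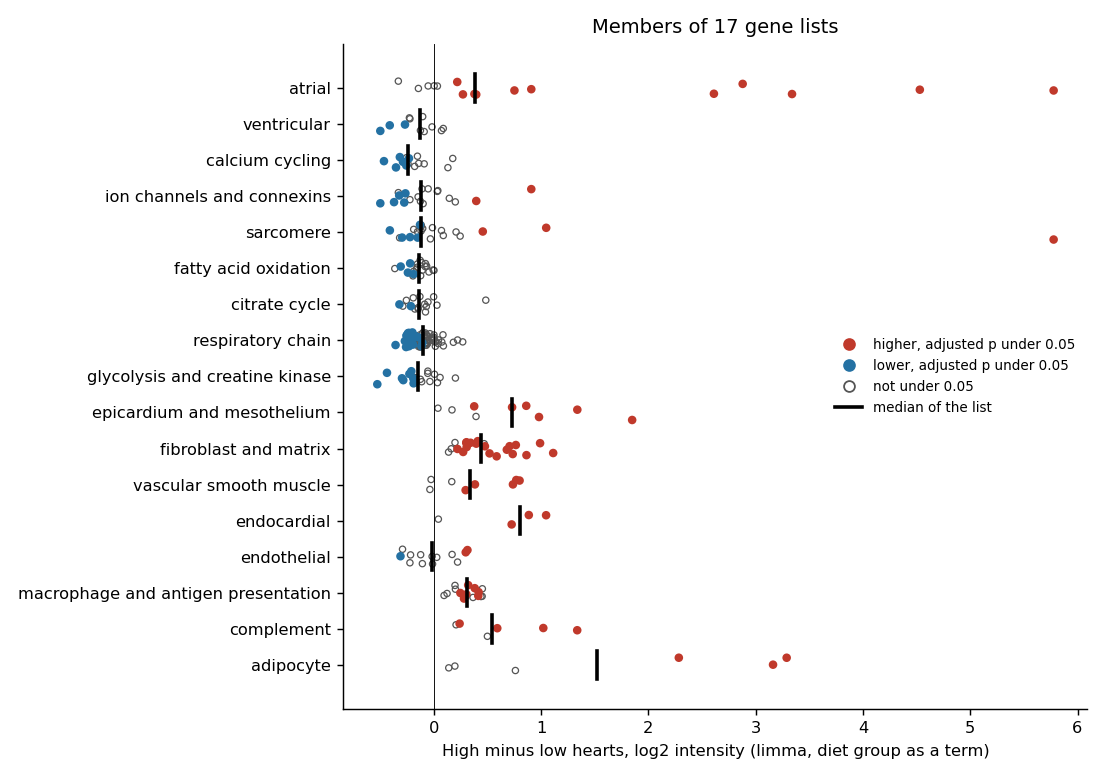
High minus low hearts in log2 intensity (x) for each tested member of 17 gene lists (y), 1 point per gene, filled where the adjusted p-value was under 0.05, with a bar at the median of the list. Atrial genes reach 5.78, the medians of matrix, mesothelial, endocardial and adipocyte lists are 0.44, 0.73, 0.806 and 1.522, and those of muscle and metabolic lists lie between -0.236 and -0.104.

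Within diet groups the leading atrial genes differed by similar amounts. In LF_LF hearts alone (3 high, 5 low), the difference of Mybphl was 5.75 and that of Nppa 2.81, and in HF_LF hearts alone (6 high, 2 low) they were 5.78 and 2.72. Dkk3 differed by 4.67 and 4.39 and Stard10 by 2.62 and 2.58. For the adipose genes the values were 5.30 and 2.94 for Scd1 and 4.03 and 2.64 for Adipoq. The test of the difference between the diet groups, over these 16 arrays, passed for 0 of 8746 genes by limma, with a smallest adjusted p of 0.999 and 192 genes at an unadjusted p under 0.05. With only 2 low HF_LF hearts, that count cannot show that the differences were alike in the diet groups.

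Body measures, which the ranking did not use, were compared by permutation tests (100000 resamples, two-sided) after the mean of each diet group was subtracted. High animals were 0.395 g heavier at 3 weeks and 0.764 g heavier at the later weighing, had 3.48 mg/dl more fasting glucose and were 0.8 mm longer. The adjusted p-values over the 4 measures were 0.475, 0.475, 0.819 and 0.475, so none passed. Raw values overlapped, with later weights of 20.38 to 29.32 g in the high animals and 21.32 to 31.4 g in the low animals.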

How the data were processed

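Heart RNA of 40 mice was measured on Illumina MouseRef-8 beadchips. The deposited intensities had been quantile-normalised by the authors in BeadStudio, for which no version was found, without background subtraction, since sorted columns agreed within 1 unit and the lowest value was 47.5. Compression near the floor and near the top, 31454.1, shortens differences of very dim and very bright genes. Of 25697 probes 23978 had 1 gene symbol in the platform annotation and 1719 had none. Intensities were log2-transformed, the probe with the highest mean was kept for each of 16593 genes, and a gene was tested when it exceeded the array median on at least 20 of 40 arrays, which left 8746 genes besides the 3 score genes.

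Models were fitted with limma 3.58.1 in R 4.3.3 (lmFit, eBayes with an intensity trend) with diet group as a term, and p-values were adjusted by Benjamini-Hochberg over the 8746 genes. Hearts were not replicates of a class in the labels: the classes were cut from the score, which is a range. Intensity gives no read depth, and the number of arrays limits the precision. The fits were tested on simulated data first. Body measures were compared with permutation tests in scipy 1.17.1, and array sets were taken from the first component of 13052 dim probes.

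The members and gene lists were chosen with earlier results of these data known. Named genes were the 15 highest and 15 lowest differences, tested atrial and ventricular markers, and the 5 genes most and least like the score. Each other list gave up to 4 genes with the smallest slope p. Further list members were named to describe a list, outside this rule and with their differences known. Among them were Asph, Hrc, Camk2d, S100a1, Mybpc3, Actn2, Kcnj8, Ndufs4, Acadvl and Suclg2. Olfm1, Cdkn2b and Fgf10 were named after their values were seen. Alternatives were: no filter on dim genes, lists of 7 or 13 hearts per class, scores of any 2 of the 3 genes, array set as a term or each set alone, single diet groups, no diet term, cage of birth as a random block, all probes of a gene, subtraction of a background from each array, no intensity trend, the score off the log2 scale, hearts with other tissue left out, an adipocyte score as a term, and each heart left out in turn. The alternatives within single diet groups, with the adipocyte score, with the score off the log2 scale and without middle hearts of extreme score were chosen after seeing the data.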

Additional observations from a re-analysis of the deposited data

Results flagged for a closer look

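Among 91 genes the lowest and the highest heart of each class were checked for a gap to the nearest other heart that was a large share of the range of the class (Dixon's test at the 95% level). Of 182 groups of 10 hearts, 19 (10.4%) had such a gap, in 17 genes and 9 hearts, where chance gives about 1 in 20.

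Heart 108, the high heart with the lowest score, was far above the other high hearts in Ckm (7309, nearest 5046), Ndufs4 (7142, nearest 6305), Suclg2 (1794, nearest 1189) and Irx4 (183.3, nearest 134.5). Heart 128 was far below them in Kcnj3 (109.0, nearest 138.8) and Npr3 (153.6, nearest 229.0). Single low values of high hearts were found for Nppa in heart 133 (22617, nearest 26402), Hamp in heart 52 (273.9, nearest 877.2), Kcnk3 in heart 101 (325.8, nearest 513.7) and Atp2a2 in heart 177 (22617, nearest 26864).

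Among the low hearts, heart 201 was far above the others in Hamp (1400, nearest 283.6), Car3 (243.9, nearest 102.0) and Lgals3 (376.8, nearest 270.6) and far below them in Timp4 (466.6, nearest 704.8). Heart 207 was far below the others in Tbx5 (72.6, nearest 86.5) and Tpm2 (187.8, nearest 216.6) and far above them in Irx4 (200.8, nearest 164.4). Heart 14 was far above in Pgam2 (7776, nearest 6423) and far below in Lyve1, a lymphatic receptor (197.0, nearest 359.2). Hearts 201 and 207 are the 2 LF_HF hearts without a high counterpart. Both were among the hearts with liver transcripts, with liver list means of 3.64 and 1.3. The part of liver tissue in their values was not tested.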

How the results depend on the processing

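Main counts were 701 higher and 792 lower. They were 317 and 133 without hearts holding other tissue, 146 and 25 with the adipocyte score as a term, 466 and 294 within the larger array set, 216 and 3 within the smaller, 376 and 189 within LF_LF hearts and 16 and 0 within HF_LF hearts. With every probe kept they were 878 and 1150, counted over probes. Lower genes numbered 448 with 13 hearts per class and 455 for a slope over all 40 arrays. The cause of these changes was not tested, though several settings used fewer hearts. Leaving out each heart gave 544 to 828 higher and 543 to 1083 lower genes, and in the middle hearts 6 to 13 higher and 0 lower. Without the 3 lowest middle scores 3 genes passed, Mybphl, Nppa and Stard10. Without the 2 middle hearts farthest from the median score 4 passed upward, adding Dkk3, and 2 downward, Cdkn2b (slope -0.196, adjusted p = 0.0126, limma) and Fgf10 (-0.176, adjusted p = 0.0429). Alternatives were tallied for 76 of the named genes counted between high and low hearts. Further list members that the text names, such as Asph, Hrc, Mybpc3 and Ndufs4, were not in this tally. For the 76 genes, 18 alternatives kept 1109 of 1368 counts and lost 258, and 1 turned, Eng within the smaller array set (-0.038). Each score of 2 genes returned the same 701 higher and 792 lower genes as the main fit. The counts kept under those scores therefore say nothing about stability. Without subtraction of diet means, later weight, glucose and length turned to -0.744 g, -4.5 mg/dl and -0.4 mm. Probes near the floor of the arrays limit what can be said of dim genes.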
